A study of Mus musculus with 36 samples.

Results

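The mitochondrial solute carriers, the Slc25 family, were read out in the left ventricle of mice after myocardial infarction (MI). A gene was counted as a member if its symbol was Slc25a followed by a number, or was Ucp1, Ucp2 or Ucp3. By this rule 46 of the 16415 genes in the deposited expression table were members, and 41 of them reached 1 FPKM (fragments per kilobase of transcript, scaled to the mapped fragments of the library) in at least 3 libraries and were tested. Male C57BL/6 mice aged 8 weeks were operated on: in the MI mice the proximal left anterior descending coronary artery was tied off, and the sham mice went through the same surgery without the occlusion. Left ventricles were taken at the early stage (1 day), the middle stage (1 week) and the late stage (8 weeks), with 3 libraries of messenger RNA for MI and 3 for sham at each stage, 18 in all. The animals carried no transgene or deletion that the labels name, and the MI and sham groups shared strain, sex and age. Per the labels each library was made from pooled ventricles and the number of animals in a pool is not given, so the p-values measure the spread between libraries. No region within the ventricle is named, so injured and remote muscle may be mixed, and fewer cells of a type cannot be told apart from less RNA per cell.

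Carriers of the Slc25 family sit mostly in the inner mitochondrial membrane and exchange nucleotides, phosphate, carboxylates, amino acids, acylcarnitines, cofactors and metals between cytosol and matrix. The ADP/ATP carriers bring ADP in and send ATP out, the phosphate carrier supplies the other substrate of ATP synthase, and the uncoupling proteins are relatives of the same fold that are known for letting charge or metabolites cross the membrane. Heart muscle is rich in mitochondria and is known for using Slc25a4, the ADP/ATP carrier of heart and skeletal muscle, while Slc25a5 is the form found in most dividing and non-muscle cells. Ucp3 is the uncoupling protein of muscle, and Ucp2 is known from immune and other non-muscle cells.

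The sequences before the starts of these 4 genes are shown because the muscle and the ubiquitous forms of each kind moved apart in the data. Each is a window of 250 bases on GRCm38.p6, the mm10 assembly, read 5′ to 3′ on the strand of the gene. For Slc25a4, Slc25a5 and Ucp3 the window lies directly upstream of the RefSeq start. The Ucp2 window ends at chr7:100493357, past the RefSeq start at 100493337, so its last bases lie inside the gene. Capitals mark matches on either strand to AGGTCA, a motif known from nuclear receptors, to the GC box GGGCGG, or to the CCAAT box, and no match overlapped another.
Slc25a4, chr8:46211063-46211312, minus strand: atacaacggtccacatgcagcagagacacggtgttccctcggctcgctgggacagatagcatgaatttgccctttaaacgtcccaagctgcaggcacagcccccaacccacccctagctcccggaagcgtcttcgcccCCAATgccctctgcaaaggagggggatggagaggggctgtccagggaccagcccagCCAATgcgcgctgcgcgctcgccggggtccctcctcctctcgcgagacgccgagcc
Slc25a5, chrX:36795347-36795596, plus strand: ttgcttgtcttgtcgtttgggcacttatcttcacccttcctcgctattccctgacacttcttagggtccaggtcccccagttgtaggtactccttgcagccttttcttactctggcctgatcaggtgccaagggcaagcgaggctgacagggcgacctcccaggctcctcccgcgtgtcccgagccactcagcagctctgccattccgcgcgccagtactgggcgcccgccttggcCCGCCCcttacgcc
Ucp3, chr7:100472741-100472990, plus strand: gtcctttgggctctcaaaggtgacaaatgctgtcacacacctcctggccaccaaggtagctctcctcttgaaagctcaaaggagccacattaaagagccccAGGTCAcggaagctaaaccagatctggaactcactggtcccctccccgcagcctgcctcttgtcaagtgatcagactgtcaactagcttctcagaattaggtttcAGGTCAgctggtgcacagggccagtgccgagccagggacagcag
Ucp2, chr7:100493108-100493357, plus strand: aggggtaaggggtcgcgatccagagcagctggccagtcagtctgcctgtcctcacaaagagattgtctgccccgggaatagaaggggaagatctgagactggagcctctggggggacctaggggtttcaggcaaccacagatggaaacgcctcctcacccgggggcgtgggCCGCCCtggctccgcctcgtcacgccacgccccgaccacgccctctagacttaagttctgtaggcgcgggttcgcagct
Upstream of Slc25a4 there were 2 CCAAT matches, 112 and 56 bases before the start. The window of Slc25a5 held 1 match to GGGCGG, on the other strand and 14 bases from the start. Ucp3 had 2 AGGTCA matches, 149 and 44 bases from the start. Ucp2 had 1 match to GGGCGG on the other strand, 79 bases from the end of its window and so nearer to the RefSeq start. An upstream window was found for 36 of the 46 members. AGGTCA stood in 5 of these 36 windows and in 13.8% of all 27025 windows, GGGCGG in 24 of 36 and 32.9%, and CCAAT in 16 of 36 and 34.5%. A match in a window of this length is a description of the letters and not a site of binding.

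On the genome Slc25a4 lies at chr8:46207168-46211062 on the minus strand and Slc25a5 at chrX:36795597-36798808 on the plus strand. Ucp3 (chr7:100472991-100486432) and Ucp2 (chr7:100493337-100499629) are neighbours on the plus strand of chromosome 7, with 6904 bases between the end of the first and the start of the second. Since the strand used in counting is not stated, it matters that 7 of the 28 members described by name share exonic bases with another annotated gene, up to 14.9% of them for Slc25a33. In Ucp2 the shared part was 4.36% of its exonic bases, with Dnajb13. RefSeq also lists 2 pseudogenes under the name of Slc25a5, and how reads that map to several places were treated is not stated, so the level of Slc25a5 is uncertain.

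The deposited values were FPKM without read counts, so the depth of the libraries is unknown. Defining markers of heart muscle were present in every sham library, where 15 cardiomyocyte genes summed to 36940 to 44670 FPKM. In the MI libraries this sum was 13180 to 16340 at 1 day, 2725 to 8430 at 1 week, and 33600, 23500 and 14380 in MI replicates 1, 2 and 3 at 8 weeks. All 15 fell at 1 day and 1 week, and 11 of 15 at 8 weeks. Neutrophil markers (8 genes) summed to at most 39.0 FPKM in sham and to at least 6228 in MI at 1 day. Fibroblast markers (10 genes) summed to 238 to 469 FPKM in sham, to at least 14870 in MI at 1 week, and to 1387 to 5121 at 8 weeks, and macrophage markers (10 genes) to 161 to 302 in sham and to at least 4156 in MI at 1 week. Markers of dividing cells (7 genes) rose from at most 8.03 to at least 53.2 FPKM at 1 week. Skeletal muscle markers (7 genes) summed to at most 1.2 FPKM in sham. They summed to 23.75, 3.93 and 5.26 in the 3 MI libraries at 1 week, and to 13.7, 3.90 and 189.5 at 8 weeks. The part that this change in marker genes had in the values of the carriers was not tested. Over all 12858 genes tested, the median log2 change of MI against sham was 0.09 at 1 day, 0.79 at 1 week and 0.52 at 8 weeks on the scale of log2(FPKM + 1), so that a gene at no change on this scale lay below the typical gene at the 2 later stages.

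More of the carriers fell than rose at 1 day, and at 1 week as many fell as rose on the FPKM scale. At the early stage 24 of the 41 members tested fell (58.5%) and 9 rose (22.0%), by limma with Benjamini-Hochberg adjustment over all genes tested and a threshold of 0.05, while of all genes tested 30.6% fell and 39.7% rose. At the middle stage 18 fell and 18 rose, 43.9% of members each way, beside 16.5% of all genes that fell and 72.8% that rose. At the late stage 12 fell (29.3%) and 18 rose (43.9%), beside 10.6% and 70.4% of all genes. The median change over the members was -0.57, -0.05 and 0.13 on the log2 scale at the 3 stages, which is -0.66, -0.84 and -0.39 relative to the median of all genes. Slc25a14 and Slc25a43 passed the filter on low values only through MI libraries, which favours a rise in MI, and without them 8, 16 and 16 members rose. The counts at the later stages rested on the scaling: under the 3 other scalings of the libraries 7 to 9 members rose and 27 to 29 fell at 1 week, and 6 to 9 rose and 25 to 28 fell at 8 weeks. At 1 day these scalings gave 8 to 10 rises and 26 falls.

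**Figure D1:**
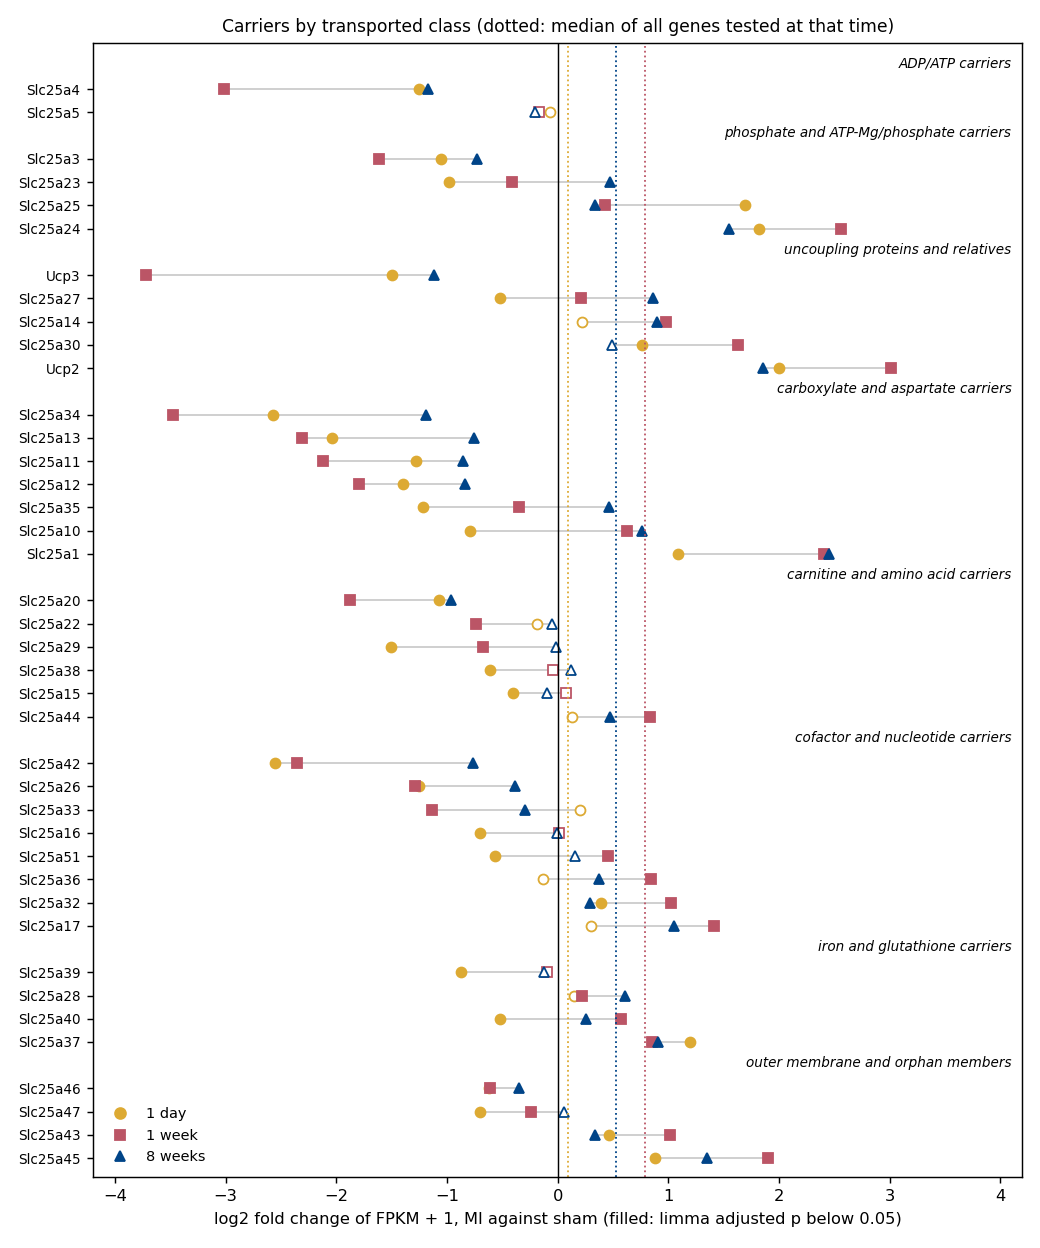
The log2 change of MI against sham on the log2(FPKM + 1) scale is shown for 40 of the 41 carriers tested, with a row for each gene, grouped by what it carries, and a symbol for each of the 3 stages, filled where the limma adjusted p was below 0.05. Dotted lines give the median of all genes tested at each stage. Most circles lie below 0 at 1 day, where 24 members fell, and at 1 week the squares reach from Ucp3 at -3.72 to Ucp2 at 3.01.

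There were 11 members that fell at all 3 stages and 8 that rose at all 3, or 7 without Slc25a43, which passed the filter only through MI libraries. Of all genes 30.6%, 16.5% and 10.6% fell and 39.7%, 72.8% and 70.4% rose at the single stages. No count of all genes over the 3 stages together is given here, so these counts cannot be set beside one. All 11 fell under each of the 4 scalings: Slc25a4, Slc25a3, Slc25a11, Slc25a12, Slc25a13, Slc25a34, Slc25a20, Slc25a42, Slc25a26, Slc25a46 and Ucp3. Of the risers Ucp2, Slc25a1, Slc25a24 and Slc25a45 rose at all 3 stages under each scaling, while Slc25a25, Slc25a32, Slc25a37 and Slc25a43 did not.

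Slc25a4 was the most abundant carrier in sham hearts and lost most of its level after MI, while Slc25a5 stayed near its sham level on the FPKM scale. Across the 9 sham libraries the lowest, median and highest level of Slc25a4 were 3340, 3461 and 3684 FPKM. The MI libraries had 1590, 1274 and 1509 FPKM at the early stage, 320, 410 and 635 at the middle and 2258, 1681 and 997 at the late stage. Every MI library lay below every sham library. Group means fell from 3455 ± 176 to 1458 ± 164 FPKM at 1 day (SD, n = 3). They went down from 3530 ± 134 to 455 ± 162 FPKM at the middle stage, and from 3524 ± 134 to 1645 ± 632 at the late stage. The MI mean was thus 42.2%, 12.9% and 46.7% of sham, with log2 changes of -1.25, -3.01 and -1.18 (SE 0.26, limma adjusted p = 0.000393, 2.05e-08 and 0.000617). At 8 weeks the 3 MI libraries stood in the same order by Slc25a4 as by the summed cardiomyocyte markers.

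Slc25a5 ran between 148 and 197 FPKM in sham, with a median of 172. In MI it was 153, 183 and 180 FPKM at 1 day, 141, 149 and 145 a week after surgery, and 148, 148 and 144 after 8 weeks. The groups overlapped at 1 day and 1 week, and at 8 weeks the MI libraries lay just under the sham ones. Its log2 change was -0.07 at 1 day, -0.17 at 1 week and -0.21 at 8 weeks (SE 0.10, limma adjusted p = 0.541, 0.104 and 0.0567), none past the threshold. Relative to the median of all genes the change was -0.16, -0.96 and -0.73. Under quantile normalization, median-ratio factors and the authors' own normalization Slc25a5 fell at 1 week, with log2 changes of -0.45, -1.14 and -0.48, and at 8 weeks, with -0.47, -0.94 and -0.50. A single sham library also decided the call: without sham replicate 2 of the stage the change was -0.24 at 1 week (adjusted p = 0.0393) and -0.27 at 8 weeks (adjusted p = 0.0368). The remaining ADP/ATP carrier in the table, Slc25a31, known from testis, did not reach 1 FPKM in any library.

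The ratio of the pair does not move with the scaling factor of a library. In sham there were 18.6 to 23.3 FPKM of Slc25a4 for each FPKM of Slc25a5. In MI the ratio was 10.4, 6.96 and 8.38 at 1 day, then 2.27, 2.75 and 4.38 at 1 week and later 15.3, 11.3 and 6.93 at 8 weeks. All 9 MI ratios lay below all sham ratios. On FPKM + 1 the log2 ratio of MI minus sham was -1.18, -2.84 and -0.97 at the 3 stages, and -1.66 averaged over the stages. The exact permutation test within stages gave a two-sided p = 0.00025, the smallest that the 8000 relabellings can give. Adjusted over 8 pairs this was 0.0004.

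**Figure D2:**
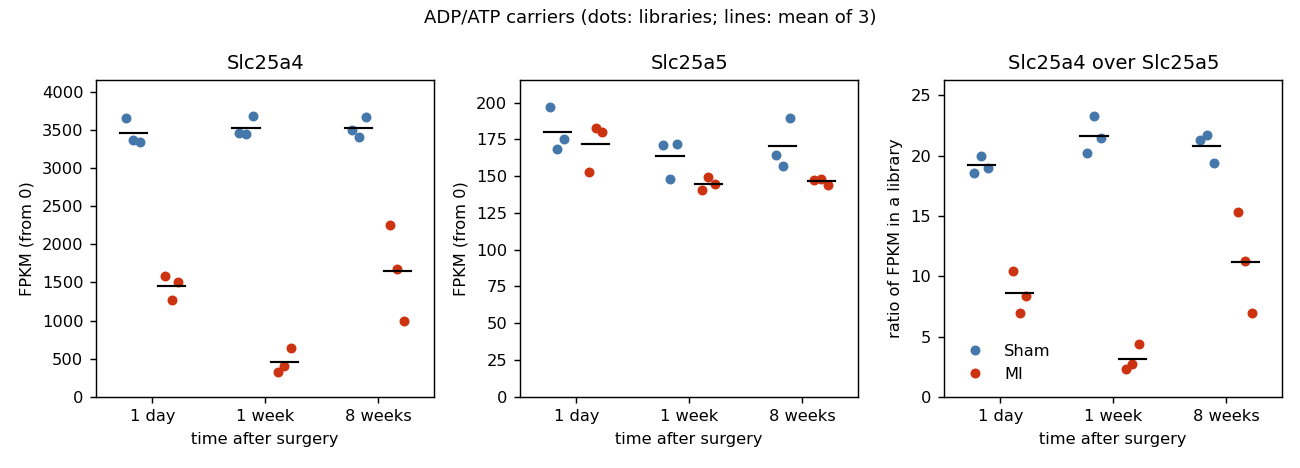
FPKM of Slc25a4 (left), FPKM of Slc25a5 (middle) and their ratio (right) are plotted on axes from 0 for each of the 18 libraries by time after surgery, with a line at the mean of each group of 3. Slc25a4 is at 3340 to 3684 FPKM in sham and 320 to 635 in MI at 1 week, while Slc25a5 is at 141 to 149 there, values that count as a fall at 1 week and 8 weeks under the other 3 scalings.

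Slc25a4 alone made up 71.4 to 73.6% of the summed FPKM of all 46 carriers in sham. The carriers summed to 4670 to 5129 FPKM in sham, to 2113 to 2391 in MI at 1 day, to 1140 to 1521 at 1 week, and to 1959 to 3281 at 8 weeks. As a share of all FPKM in a library this was 1.45 to 1.60% in sham and 0.283 to 0.392% in MI at 1 week. The share of Slc25a4 in the carrier sum was 60.3 to 66.5% in MI at 1 day, was 28.0 to 41.7% at 1 week, and was 50.9 to 68.8% at the late stage. Ucp2 went the other way, from 0.378 to 0.549% of the sum in sham to 12.5 to 17.7% in MI at 1 week, where its share passed that of Slc25a5 (9.53 to 12.3%). Slc25a3 held a more even share, 10.4 to 11.5% in sham and 12.8 to 13.8% in MI at 1 week.

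**Figure D3:**
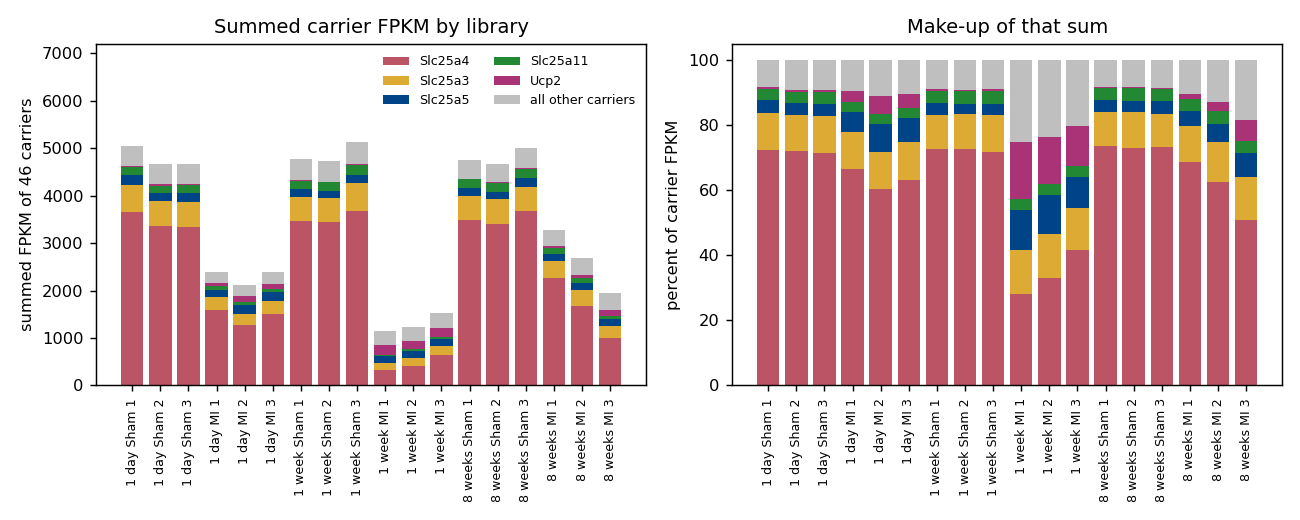
The summed FPKM of the 46 carriers (left) and its make-up in percent (right) are stacked for each of the 18 libraries, with Slc25a4, Slc25a3, Slc25a5, Slc25a11, Ucp2 and all other carriers in different colours. Slc25a4 takes 71.4 to 73.6% of the sham bars and 28.0 to 41.7% of the MI bars at 1 week, where Ucp2 takes 12.5 to 17.7%.

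Among the phosphate and ATP-Mg/phosphate carriers, the main phosphate carrier fell and 2 of the calcium-regulated ATP-Mg/phosphate carriers rose. Slc25a3, which brings in the phosphate for ATP synthase, was the next most abundant carrier, with 501, 523 and 590 FPKM as the lowest, median and highest sham level. It was 270, 241 and 273 FPKM in MI at the early stage, 158, 166 and 194 at the middle and 362, 329 and 256 at the late stage. All 9 MI libraries lay below the sham range, with log2 changes of -1.05, -1.62 and -0.73 (SE 0.12, limma adjusted p = 1.31e-06, 6.45e-09 and 6.84e-05).

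Slc25a24 ran from 1.48 to 2.37 FPKM in sham. In MI it was 9.45, 10.7 and 9.85 FPKM at 1 day, 15.6, 16.1 and 15.3 a week after surgery, and 3.58, 6.75 and 10.6 after 8 weeks. Each MI library was above all sham libraries, and the rise was 1.82, 2.56 and 1.54 on the log2 scale (SE 0.21). Slc25a25, a relative with the same substrates, was at 1.43, 1.17 and 1.89 FPKM in sham at 1 day against 6.42, 7.52 and 7.13 in MI, a rise of 1.69 (SE 0.14, limma adjusted p = 1.94e-08). Its later values were 4.01, 4.57 and 4.37 FPKM in MI at 1 week against 3.69, 2.64 and 2.60 in sham, and 3.10, 3.78 and 4.24 at 8 weeks against 2.31, 2.61 and 3.28. The later rises of Slc25a25, 0.43 and 0.34, turned to -0.45 and -0.36 under quantile normalization, and the call at 8 weeks was lost without any of MI replicates 2 and 3 or sham replicates 1 and 2. Slc25a23, the form with 9.01 to 11.7 FPKM in sham, fell at first and was higher late. It was 5.71, 4.21 and 5.65 FPKM in MI at 1 day, then 6.58, 6.84 and 9.12 at 1 week and later 13.8, 12.8 and 14.4 at 8 weeks. The log2 changes were -0.99, -0.41 and 0.47, of which the late rise became -0.08 under quantile normalization.

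Ucp2 and Ucp3 moved in opposite directions at all 3 stages. Ucp2 ran from 17.9 to 25.6 FPKM in sham, with a median of 23.5. It reached 77.8, 119 and 101 FPKM in MI at the early stage, 201, 181 and 190 at the middle and 49.9, 73.2 and 124 at the late stage. No MI library overlapped with sham, and the log2 change was 2.0, 3.01 and 1.85 (SE 0.24, limma adjusted p = 2.07e-06, 1.22e-08 and 6.29e-06). At 1 week the MI mean was 829% of sham. The 3 MI libraries at 8 weeks stood in the same order by Ucp2 as by the macrophage markers, whose sum was 867, 1277 and 2328 FPKM, and also as by the fibroblast (1387, 2849 and 5121), adipocyte (608, 1328 and 2632) and dividing-cell markers (7.04, 11.5 and 15.5). The part of these markers in the value of Ucp2 was not tested.

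Ucp3 varied between the sham stages, with 6.41, 7.04 and 6.55 FPKM at 1 day, 19.7, 19.8 and 32.5 a week after surgery, and 4.49, 6.42 and 13.7 after 8 weeks. In MI it was 1.37, 1.85 and 1.96 FPKM at 1 day, then 0.317, 0.797 and 1.63 at 1 week and later 3.72, 3.13 and 2.02 at 8 weeks. Each MI group lay below its own sham group, with log2 changes of -1.50, -3.72 and -1.11 (SE 0.31, limma adjusted p = 0.000432, 1.65e-08 and 0.00387). The high sham library at 8 weeks carried part of the late difference, which was -0.71 without it. The ratio of Ucp3 to Ucp2 was 0.263 to 0.309 in sham and 0.0156 to 0.0194 in MI at 1 day, and at 1 week 0.768 to 1.27 in sham and 0.00157 to 0.00856 in MI.

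The other relatives of the uncoupling proteins were low. Slc25a30 ran from 1.66 to 2.95 FPKM in sham, and was 4.26, 5.57 and 5.81 in MI at the early stage, 9.19, 8.46 and 7.72 at the middle and 1.79, 4.05 and 5.69 at the late stage. It rose at 1 day (0.76) and 1 week (1.63), and at 8 weeks its value of 0.49 (adjusted p = 0.0551) rested on MI replicate 1, without which it was 0.85 and past the threshold, and became -0.21 under quantile normalization. Slc25a27 had 0.768 to 1.21 FPKM in sham and 0.423 to 0.475 in MI at 1 day, a fall of -0.52, and its rises of 0.22 and 0.86 at the later stages were -0.48 and 0.16 under quantile normalization. Slc25a14 had at most 0.918 FPKM in sham and 2.48 to 2.64 in MI at 1 week.

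Of the 7 carboxylate and aspartate carriers tested, 6 fell at 1 day, 5 at 1 week and 4 at 8 weeks. Of all genes tested 30.6%, 16.5% and 10.6% fell at these stages. Slc25a11, which swaps oxoglutarate for malate in the malate-aspartate shuttle, had 165, 181 and 198 FPKM as its lowest, median and highest sham level. It was 74.5, 62.5 and 71.9 FPKM in MI at 1 day, 36.0, 41.9 and 51.0 a week after surgery, and 129, 106 and 75.4 after 8 weeks. The sham ranges of Slc25a11 and Slc25a5 overlapped, while the log2 changes of Slc25a11 were -1.28, -2.12 and -0.85 (SE 0.15), each below 0 under every scaling.

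The aspartate/glutamate carriers of the same shuttle fell too. Slc25a12 ran from 52.1 to 61.0 FPKM in sham, and was 20.8, 18.7 and 23.2 in MI at 1 day, then 12.7, 15.0 and 18.3 at 1 week and later 35.9, 33.3 and 26.1 at 8 weeks. Slc25a13 ran from 31.6 to 38.2 FPKM in sham, and was 7.91, 5.87 and 8.79 in MI at the early stage, 4.07, 6.00 and 9.72 at the middle and 23.0, 21.5 and 13.7 at the late stage. Log2 changes were -1.40, -1.80 and -0.84 for Slc25a12 and -2.04, -2.31 and -0.76 for Slc25a13, with no overlap of groups.

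Slc25a34, a member without a settled substrate that is grouped here by its closeness to the dicarboxylate carriers, fell furthest of the family after Ucp3 at 1 week. Sham levels ran from 40.6 to 50 FPKM. MI levels were 6.69, 5.54 and 7.45 FPKM at 1 day, 1.97, 3.16 and 6.09 a week after surgery, and 26.8, 18.9 and 12.2 after 8 weeks. The log2 changes were -2.57, -3.47 and -1.19 (SE 0.26), and at 1 week the MI mean was 7.74% of sham.

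Slc25a1, the citrate carrier, known for feeding fatty acid synthesis, rose instead. It ran from 1.75 to 3.06 FPKM in sham, and was 5.58, 6.09 and 6.00 in MI at 1 day, then 19.3, 18.8 and 18.1 at 1 week and later 5.94, 17.2 and 37.1 at 8 weeks. All MI libraries were above all sham libraries, by 1.09, 2.41 and 2.46 on the log2 scale (SE 0.38, limma adjusted p = 0.0166, 1.56e-05 and 2.67e-05). The call at 1 day was lost without sham replicate 1 (1.01, adjusted p = 0.0522). At 8 weeks the MI libraries stood in the same order by Slc25a1 as by the adipocyte (6 genes), macrophage, fibroblast and dividing-cell markers, whose part in this value was not tested. At 1 week the adipocyte sum was 351 to 494 FPKM in MI against 686 to 1144 in sham. That sum was mostly Fabp4, with a mean of 379.8 FPKM in MI against 943.8 in sham. The other adipocyte markers had higher means in MI than in sham, and only Cfd of them passed the threshold. The lower sum thus does not give the direction of the list, and its part in the value of Slc25a1 at 1 week was not tested. Slc25a10, the dicarboxylate carrier, ran from 1.77 to 2.29 FPKM in sham and changed direction with the stage. It was 0.781, 0.708 and 0.682 FPKM in MI at the early stage, 3.69, 3.87 and 4.17 at the middle and 2.92, 4.37 and 6.96 at the late stage. The log2 change went from -0.80 to 0.62 and 0.76, of which the value at 1 week became -0.24 under quantile normalization and that at 8 weeks was 0.50 without MI replicate 3 and 0.0846 (adjusted p = 0.475) under quantile normalization. Slc25a35, like Slc25a34 without a settled substrate, had 1.87 to 3.36 FPKM in sham and changed by -1.22, -0.35 and 0.47, the last of which became -0.24 under quantile normalization.

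**Figure D4:**
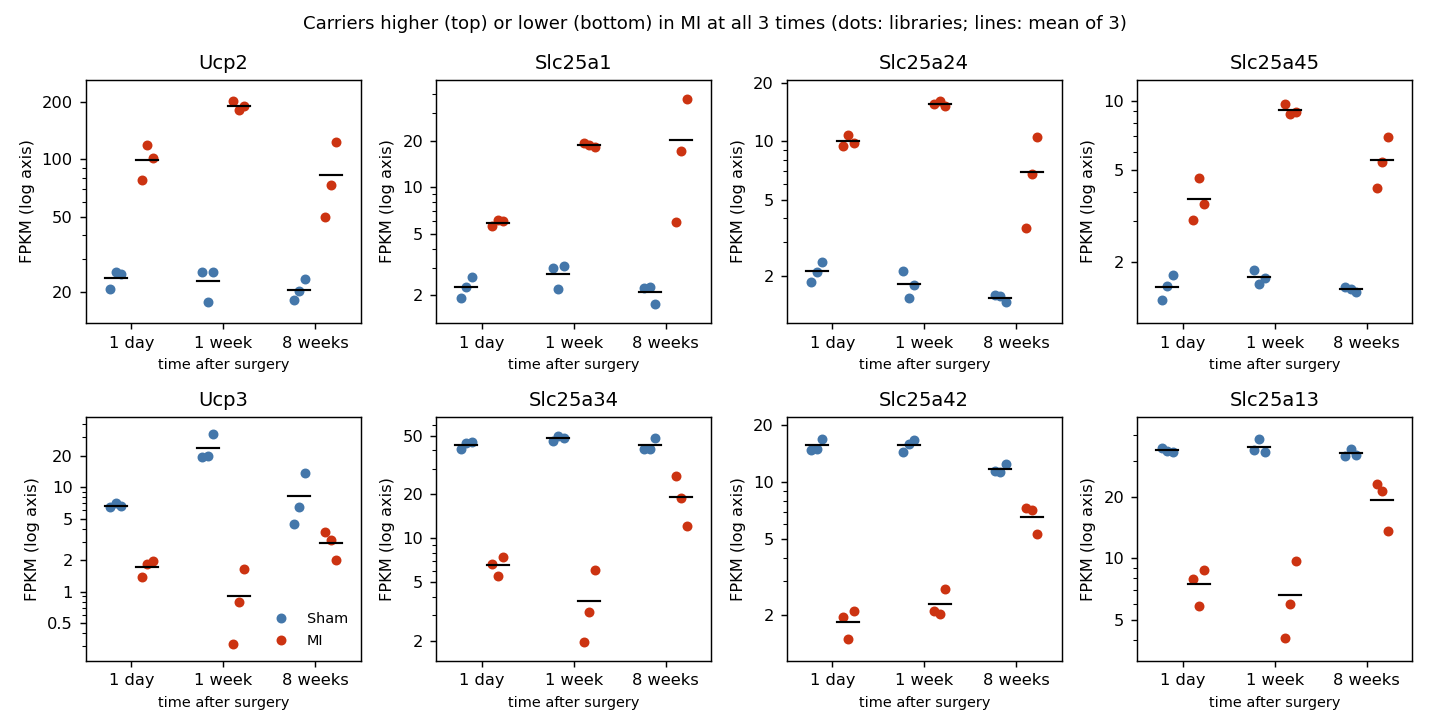
FPKM in each of the 18 libraries is plotted on log axes by time after surgery, with a line at the mean of each group of 3, for 4 members that were higher in MI at all 3 stages (top) and 4 that were lower (bottom). At 8 weeks the 3 MI libraries are spread out, as for Slc25a1 at 5.94, 17.2 and 37.1 FPKM, while at 1 week they lie close together for the risers.

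Of the 6 carnitine and amino acid carriers tested 4 fell at 1 day, near the 58.5% of all members and beside 30.6% of all genes. Slc25a20, the carnitine/acylcarnitine carrier that admits fatty acids for oxidation, ran from 56.4 to 77.4 FPKM in sham, with a median of 72.1. In MI it was 33.4, 34.5 and 36.6 FPKM at 1 day, 18, 17.4 and 22.4 a week after surgery, and 39.0, 33.4 and 25.3 after 8 weeks. The fall was -1.08, -1.87 and -0.96 on the log2 scale (SE 0.13, limma adjusted p = 2.01e-06, 2.81e-09 and 8.55e-06), with no overlap. Slc25a29, a carrier of basic amino acids, had 4.52, 4.08 and 3.84 FPKM in sham at 1 day, then 2.56, 2.37 and 2.67 at 1 week and later 2.63, 2.75 and 2.56 at 8 weeks. Its MI values were 0.801, 0.736 and 0.890 FPKM at the early stage, 1.16, 1.05 and 1.44 at the middle and 2.35, 2.60 and 2.86 at the late stage. It fell at 1 day (-1.51) and 1 week (-0.67), and at 8 weeks the groups overlapped with a value of -0.02, which became a fall of -0.73, -0.55 and -0.72 under the 3 other scalings. Slc25a22, a glutamate carrier, ran from 6.61 to 13.9 FPKM in sham, and was 6.24, 7.09 and 7.51 in MI at 1 day, 6.52, 6.48 and 6.44 a week after surgery, and 6.35, 6.49 and 8.65 after 8 weeks. It fell at 1 week (-0.74), and the values of -0.19 and -0.05 at the other stages were not past the threshold. Under the 3 other scalings Slc25a22 fell at those stages too, by -0.43, -0.30 and -0.44 at 1 day and by -0.66, -0.70 and -0.68 at 8 weeks. Slc25a44, a carrier of branched-chain amino acids, was the only riser here, at 1 week (0.83) and 8 weeks (0.48), which became -0.02 and -0.19 under quantile normalization. Slc25a38 and Slc25a15 fell at 1 day, with log2 changes of -0.62 and -0.40. At the later stages they were not called on the FPKM scale, where Slc25a38 was -0.05 and 0.12 and Slc25a15 was 0.07 and -0.09, but under quantile normalization Slc25a38 was -0.90 and -0.50 and Slc25a15 was -0.79 and -0.80.

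Among the 9 cofactor and nucleotide carriers tested, 5 fell and 1 rose at 1 day, 4 fell and 4 rose at 1 week, and 3 fell and 3 rose at 8 weeks. Beside them 30.6%, 16.5% and 10.6% of all genes fell at the 3 stages and 39.7%, 72.8% and 70.4% rose. Slc25a42, a carrier of coenzyme A, ran from 11.3 to 17 FPKM in sham, and was 1.95, 1.49 and 2.09 in MI at 1 day, then 2.08, 2.03 and 2.75 at 1 week and later 7.33, 7.13 and 5.32 at 8 weeks. Its log2 change was -2.56, -2.35 and -0.76 (SE 0.12, limma adjusted p = 7.60e-11, 2.07e-10 and 3.36e-05). Slc25a16, also linked to coenzyme A, ran from 7.53 to 8.74 FPKM in sham and fell at 1 day, with a log2 change of -0.70. It was 4.5, 5.01 and 4.67 FPKM in MI at the early stage, 7.25, 8.76 and 8.37 at the middle and 6.82, 8.57 and 7.51 at the late stage. At the 2 later stages Slc25a16 overlapped with sham, at 0.01 and -0.01, and under quantile normalization it fell there too, by -0.84 and -0.63.

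Slc25a17, a carrier of the peroxisome, rose at 1 week and 8 weeks. Sham levels ran from 5.92 to 7.23 FPKM, and MI levels were 7.74, 9.31 and 8.82 at 1 day, 20.2, 19.2 and 17.3 a week after surgery, and 10.1, 13.9 and 17.5 after 8 weeks. The log2 change was 0.30 at 1 day (adjusted p = 0.0558, and 0.37 with adjusted p = 0.0395 without MI replicate 1), 1.41 at 1 week and 1.05 at 8 weeks. The pyrimidine nucleotide carriers differed from each other. Slc25a33 ran from 4.32 to 8.24 FPKM in sham, and was 5.37, 5.10 and 5.65 in MI at 1 day, then 2.02, 2.04 and 2.68 at 1 week and later 6.65, 5.84 and 4.62 at 8 weeks. It fell at 1 week (-1.14), and its call at 8 weeks (-0.30, adjusted p = 0.0401) was lost without any of replicates 2 and 3 of either group, the value being -0.17 without MI replicate 3. Slc25a36 ran from 7.09 to 9.94 FPKM in sham, and was 8.06, 8.19 and 8.78 in MI at the early stage, 15.7, 14.8 and 15.3 at the middle and 8.90, 11 and 13.6 at the late stage. Its log2 change was -0.13, 0.84 and 0.38. The first was a fall of -0.37 and the second 0.0674 (adjusted p = 0.43) under quantile normalization, and the late value, which was 0.24 without MI replicate 3 and lost its call without sham replicate 2, became -0.21 under quantile normalization and -0.29 under median-ratio factors, which also gave -0.05 at 1 week. Slc25a26, the carrier of S-adenosylmethionine, fell at all 3 stages, with log2 changes of -1.25, -1.29 and -0.38. Slc25a51, which carries NAD into the matrix, changed by -0.57, 0.45 and 0.16, and quantile normalization turned the later values to -0.27 and -0.37. Slc25a32, linked to folate and FAD, changed by 0.40, 1.03 and 0.29 from 2.10 to 2.73 FPKM in sham, and its late value turned to -0.40.

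The mitoferrins and the glutathione carriers had no falls at the 2 later stages on the FPKM scale, but had some under the other scalings, as given for each. Slc25a37, the mitoferrin known from blood cell precursors, ran from 2.74 to 3.73 FPKM in sham, and was 8.28, 10.5 and 9.82 in MI at 1 day, 6.50, 6.32 and 6.55 a week after surgery, and 5.79, 5.65 and 8.13 after 8 weeks. It rose at each stage, by 1.19, 0.86 and 0.91 (SE 0.12), of which the value at 1 week became -0.01 under quantile normalization. Erythroid markers (7 genes) summed to 484 to 1274 FPKM in sham and, in MI, to 1212 to 2015 at 1 day, then 352 to 1306 and finally 789 to 2083. Slc25a28, the other mitoferrin, ran from 6.75 to 8.97 FPKM in sham, and was 9.10, 9.81 and 9.54 in MI at 1 day, then 8.23, 8.10 and 8.04 at 1 week and later 12.6, 10.2 and 11.3 at 8 weeks. The values were 0.15 (adjusted p = 0.0767), 0.22 and 0.61, of which the first and second became -0.10 and -0.63 under quantile normalization and the third became -0.05 under median-ratio factors.

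Slc25a39, which brings glutathione into the matrix, ran from 37.9 to 46.4 FPKM in sham. It was 23.5, 23.8 and 25.4 FPKM in MI at the early stage, 38.8, 39.8 and 38.4 at the middle and 38.2, 39.1 and 39.7 at the late stage. Its fall at 1 day was -0.88 (SE 0.07, limma adjusted p = 1.19e-08), and at the later stages it was -0.09 and -0.13, not past the threshold. Under quantile normalization, median-ratio factors and the authors' normalization Slc25a39 fell at both, by -0.68, -1.04 and -0.69 at 1 week and by -0.56, -0.85 and -0.57 at 8 weeks, and without sham replicate 2 the value at 1 week was -0.16 (adjusted p = 0.0348). Slc25a40, its close relative, ran from 2.09 to 2.91 FPKM in sham, and was 1.73, 1.44 and 1.62 in MI at 1 day, 4.21, 4.07 and 3.94 a week after surgery, and 2.88, 3.24 and 3.57 after 8 weeks. The log2 change of Slc25a40 was -0.52, 0.58 and 0.25, and both later values turned to -0.29 and -0.45 under quantile normalization.

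Of the members of the outer membrane or without a known substrate, Slc25a45 rose at each stage and Slc25a46, an outer membrane protein linked to mitochondrial shape, fell at each. Slc25a45 ran from 1.37 to 1.84 FPKM in sham, and was 3.04, 4.61 and 3.56 in MI at 1 day, then 9.71, 8.76 and 8.96 at 1 week and later 4.17, 5.41 and 6.98 at 8 weeks. Its log2 change was 0.88, 1.90 and 1.35 (SE 0.14), and all 3 rises were past the threshold in the other scalings too. Slc25a46 had 14.4 to 17.2 FPKM in sham and 9.11 to 11.6 in MI, with changes of -0.62, -0.61 and -0.35. Slc25a47 changed by -0.70, -0.24 and 0.06 (-0.65 at 8 weeks under quantile normalization), and Slc25a43 had at most 0.157 FPKM in sham and 1.27 to 1.37 in MI at 1 week. Slc25a2, Slc25a18, Slc25a21, Slc25a31 and Slc25a53 did not pass the filter, with at most 0.342 FPKM in any library. No gene with deposited values carried the symbol Ucp1, Slc25a41, Slc25a48, Slc25a52 or Slc25a54, so these were not analysed here.

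Close relatives with one kind of cargo were compared within each library as log2 ratios of FPKM + 1. Ratios given without log2 are of raw FPKM, so they differ from the shifts where a gene is low. All 8 pairs tested differed between MI and sham over the stages, with adjusted p values from 0.0004 to 0.0265 in the exact permutation test. With the replicate number as a block, that test gave adjusted p = 0.0625 for Slc25a12/Slc25a13 and 0.0703 for Slc25a33/Slc25a36, so these 2 lost their calls. At a single stage 3 libraries against 3 cannot give a p below 0.1. The largest shift was that of Ucp3 to Ucp2, -4.40 over the stages. Slc25a23 to Slc25a24 shifted by -2.29, from 4.51 to 6.68 in sham to 0.392 to 0.604 in MI at 1 day and, at the later stages, 0.421 to 0.597 and 1.36 to 3.86. Slc25a42 to Slc25a16 shifted by -1.66, Slc25a28 to Slc25a37 by -0.66 and Slc25a39 to Slc25a40 by -0.47, although the raw ratios of the last pair overlapped at 1 day (15.2 to 17.5 in sham and 13.6 to 16.5 in MI). For Slc25a28 to Slc25a37 the groups overlapped at 8 weeks, with raw ratios of 2.06 to 2.61 in sham and 1.39 to 2.17 in MI.

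The ratio of the aspartate/glutamate carriers Slc25a12 to Slc25a13 was higher in MI by 0.36 (adjusted p = 0.0106), the smallest shift of the 8. It was 1.62 to 1.74 in sham and 2.63 to 3.19 in MI at 1 day, but 1.63 to 1.90 and 1.55 to 1.90 at 8 weeks, where the groups overlapped. Slc25a33 to Slc25a36 had no single direction, since MI minus sham was 0.34 at 1 day and -1.98 at 1 week, with -0.77 over the stages (adjusted p = 0.0265). At 8 weeks its groups overlapped too. Slc25a22 and Slc25a18 could not be compared, as Slc25a18 did not pass the filter.

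**Figure D5:**
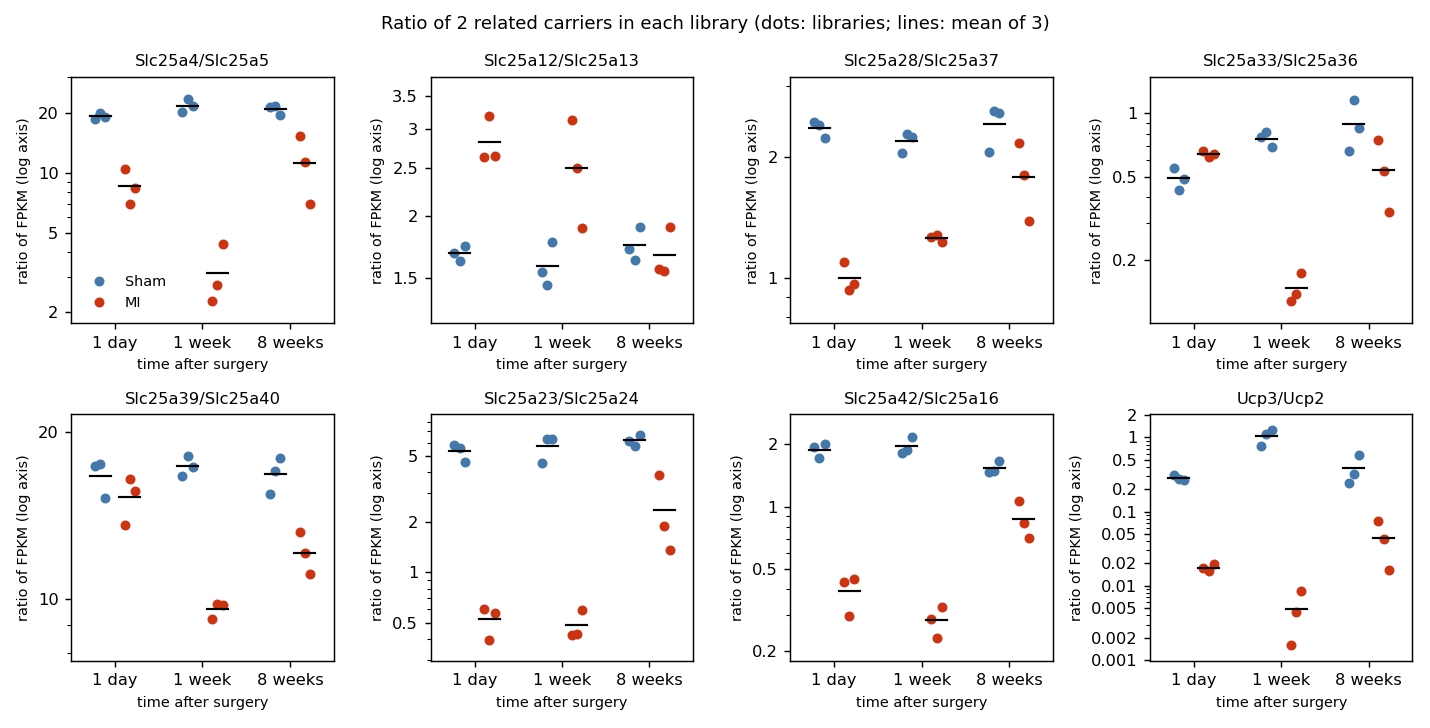
The ratio of the FPKM of 2 related carriers in each of the 18 libraries is plotted on log axes by time after surgery, with a panel for each of the 8 pairs and a line at the mean of each group of 3. The MI points lie apart from sham at all stages for Slc25a4/Slc25a5 and Ucp3/Ucp2. For Slc25a12/Slc25a13, Slc25a28/Slc25a37 and Slc25a33/Slc25a36 they overlap with sham at 8 weeks.

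The change after MI differed between stages for many members, by limma on the difference itself. From 1 day to 1 week 24 of 41 members moved up relative to sham (58.5%, close to the 60.0% of all genes) and 9 moved down (22.0%, beside 11.8%). The balance turned round under the 3 other scalings, with 7 to 8 members up and 15 to 16 down. From 1 week to 8 weeks 19 moved up (46.3%, beside 17.1% of all genes) and 8 down (19.5%, beside 29.9%), the latter being 5 without sham replicate 2 or MI replicate 1 at 1 week, or without replicate 1 of either group at 8 weeks. These differences share the libraries at 1 week, so the second is no separate support for the first. Slc25a4 had a difference of -1.76 from 1 day to 1 week, a deeper fall, and of 1.83 from 1 week to 8 weeks (limma adjusted p = 0.000469 and 0.00108). Ucp3 had -2.23 and 2.61, but its sham mean moved as well, at 6.67, 24.0 and 8.19 FPKM at the 3 stages. In MI its mean was 1.73, 0.915 and 2.96 FPKM. Ucp2 had 1.01 and -1.16, of which the first was 0.17 and lost its call (adjusted p = 0.58) under median-ratio factors. Slc25a34 had -0.90 and 2.28, which left it less reduced at 8 weeks than at either earlier stage (1.38 against 1 day, adjusted p = 0.00394). For Slc25a5 no difference between stages was past the threshold on the FPKM scale, but from 1 day to 1 week it moved down by -0.38, -0.95 and -0.40 under quantile normalization, median-ratio factors and the authors' normalization (adjusted p = 0.0154, 0.000205 and 0.0157).

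Few members passed the threshold between sham stages, in contrasts added after the data were seen. Between 1 day and 1 week 2 members (4.88%) were higher in sham, beside 0.459% of all genes. They were Ucp3 by 1.67 (limma adjusted p = 0.0109) and Slc25a25 by 0.67 (adjusted p = 0.0179). In the other direction 1 member (2.44%) was lower, Slc25a29 at -0.54 (adjusted p = 0.00294), beside 0.957% of all genes. Between 1 week and 8 weeks Ucp3 was lower again, at -1.53 (adjusted p = 0.0323), the single such member (2.44%) where 0.428% of all genes fell. By limma 0 members rose then (0 at an unadjusted p under 0.05), where 0.42% of genes did. At an unadjusted p under 0.05, 4 members were lower between those stages, and between 1 day and 1 week 4 were higher and 6 lower. For these 3 members the sham level that MI was compared with thus differed between stages.

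Other genes of mitochondrial transport were counted beside the carriers. Of 20 tested genes for other transporters of the inner membrane, such as the pyruvate carrier and the calcium channel, 9 rose and 11 fell at the early stage. At the middle stage 10 rose and 10 fell, and at the late stage 11 rose and 8 fell. Of the 6 channels and relatives in the outer membrane 5, 4 and 3 fell and 1, 2 and 2 rose. The import machinery of the carriers (9 tested genes of the TIM22 and TOM complexes) had 3, 4 and 2 falls and 2, 2 and 3 rises. Of all genes 30.6%, 16.5% and 10.6% fell at the 3 stages and 39.7%, 72.8% and 70.4% rose. Timm22, the channel that inserts carriers, changed by -0.44 at 1 day (limma adjusted p = 0.000875). Among 9 enzymes of the shuttles that the carriers serve 8 fell at every stage, with a median log2 change of -1.16, -2.48 and -0.99. Got1, the cytosolic aspartate aminotransferase, fell from 247 ± 13.9 to 37.1 ± 16.2 FPKM at 1 week (SD, n = 3), and Cpt1b, the muscle form of carnitine palmitoyltransferase, from 142 ± 9.34 to 14.8 ± 8.63. Cpt1a, the form known from liver and other tissues, was the riser, from 11.4 ± 0.475 to 34.7 ± 1.25 FPKM at 1 week. Of the 15 nuclear-encoded subunits of ATP synthase 15, 15 and 14 fell, with medians of -1.02, -2.15 and -0.64, beside -0.57, -0.05 and 0.13 for the carriers.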

How the data were processed

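Messenger RNA from mouse left ventricle was sequenced in 18 libraries, 3 of MI and 3 of sham at each of 3 stages. The 18 small RNA libraries were not used here. Per the submitters' processing notes reads were aligned with TopHat2 2.0.13 and Bowtie2 2.2.3 to mm10, and the authors computed the deposited FPKM per gene with Cufflinks 2.2.1. The annotation, the strand setting and the treatment of reads with several matches are not given in the sources used here. The table also held log2 values of FPKM + 1 that the authors had normalized, used as an alternative scaling, and their own fold changes and p-values, which were not used. No read counts were in the table, so the depth is unknown and no count model was fitted.

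A gene was tested if 3 or more libraries reached 1 FPKM, which held for 12858 of 16415. The values were tested as log2(FPKM + 1) with limma 3.58.1 (intensity trend, R 4.3.3) in 1 fit of 6 group means, with Benjamini-Hochberg adjustment over all genes tested in a contrast and a threshold of 0.05. Pairs of carriers were tested by exact two-sided permutation in Python 3.11.15 (scipy 1.17.1, numpy 2.4.6, pandas 2.3.3), and plots were drawn with matplotlib 3.10.9. The fit was tested on simulated data. Highly correlated libraries were looked for, and no 2 libraries held the same values. Members described by name were the ADP/ATP, uncoupling, phosphate, citrate, dicarboxylate, oxoglutarate and carnitine carriers, all genes of the pairs, members with a group mean of at least 20 FPKM, and the 5 largest called rises and falls at each stage. Other members are given by ranges, counts or single values. The members, lists and pairs were chosen with earlier results of these data known. Alternatives were a pseudocount of 0.1, no filter or a mean of at least 5 FPKM, 3 other scalings, each stage alone, a replicate block, no intensity trend, and leaving out each library in turn. Comparisons between sham stages were added after the data were seen. Sequences and positions came from RefSeq and the annotation of GRCm38.p6. All 46 members were found in RefSeq. The values of 1 member are not reported here, though it is included in the counts.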

Additional observations from a re-analysis of the deposited data

Results flagged for a closer look

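For the steps from 1 day to 1 week and from 1 week to 8 weeks, the 3 largest called moves each way are given. Slc25a4 and Ucp2 are given for both steps. The values come from limma on the difference of MI minus sham between stages, with a size of at least 1 on the log2 scale. Other members met the same limits: Slc25a25 (-1.26), Slc25a40 (1.10), Slc25a45 (1.03) and Slc25a51 (1.02) from 1 day to 1 week. From 1 week to 8 weeks these were Slc25a42 (1.59), Slc25a13 (1.55) and Slc25a11 (1.27). Between 1 day and 1 week the change moved down for Slc25a4 by -1.76 (adjusted p = 0.000469), for Ucp3 by -2.23 (adjusted p = 0.000324) and for Slc25a33 by -1.34 (adjusted p = 8.66e-06). It moved up for Slc25a1 by 1.32, for Slc25a10 by 1.42, for Slc25a17 by 1.11 and for Ucp2 by 1.01. The difference of Slc25a1 (adjusted p = 0.0353) lost its call in 9 of the 12 fits that left out a library of those 2 stages, and under all 3 other scalings, which gave 0.85, 0.53 and 0.88. The difference of Ucp2 was 0.17 (adjusted p = 0.58) under median-ratio factors.

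Between 1 week and 8 weeks the change moved up for Slc25a4 by 1.83, for Slc25a34 by 2.28 and for Ucp3 by 2.61. It moved down for Slc25a24 by -1.02, for Slc25a30 by -1.14 and for Ucp2 by -1.16. The value of Slc25a24 was -0.67 without MI replicate 1 at 8 weeks. Ucp3 also varied between the sham stages. The MI libraries at 8 weeks differed from each other in summed cardiomyocyte markers, from 14380 to 33600 FPKM, and the part of this in the late values was not tested.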

How the results depend on the processing

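With the filter set at a mean of 5 FPKM fewer genes were tested, and 4, 9 and 9 members rose at the 3 stages, while 12 moved up from 1 day to 1 week and 3 down from 1 week to 8 weeks, which was 5 with a pseudocount of 0.1. Quantile normalization and the authors' normalization both gave 7 rises and 29 falls at 1 week, 6 and 28 at 8 weeks, and 8 members up and 15 down from 1 day to 1 week. Median-ratio factors gave 9 rises and 27 falls at 1 week, 9 and 25 at 8 weeks, and 7 up and 16 down. Slc25a5 then fell at 1 week and 8 weeks, by -0.45 and -0.47 under quantile normalization, -0.48 and -0.50 under the authors' and -1.14 and -0.94 under median-ratio factors, where its difference from 1 week to 8 weeks turned to 0.20. These scalings bring the median change of all genes at 1 week from 0.79 to 0.03 and, for median-ratio factors, 0.04.

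Among the 28 members described by name, signs turned under quantile normalization at each stage. At 1 week this held for Slc25a10 (-0.24), Slc25a16 (-0.84), Slc25a25 (-0.45), Slc25a28 (-0.63), Slc25a37 (-0.0104) and Slc25a40 (-0.29). At 1 day it held for Slc25a28 (-0.10) and Slc25a33 (-0.0603), and at 8 weeks for Slc25a23 (-0.0821), Slc25a25 (-0.36), Slc25a30 (-0.21), Slc25a36 (-0.21) and Slc25a40 (-0.45). Under the authors' normalization the same results were -0.24, -0.86, -0.45, -0.65, -0.0105 and -0.29 at 1 week, -0.10 and -0.0613 at 1 day, and -0.0863, -0.36, -0.21, -0.22 and -0.45 at 8 weeks. Median-ratio factors gave -0.0947 for Slc25a10, -0.84 for Slc25a16, -0.32 for Slc25a25, -0.62 for Slc25a28, -0.0488 for Slc25a36 and -0.15 for Slc25a40 at 1 week, and -0.20 for Slc25a23, -0.23 for Slc25a25, -0.052 for Slc25a28, -0.0607 for Slc25a30, -0.29 for Slc25a36 and -0.29 for Slc25a40 at 8 weeks. Signs also turned under quantile normalization for other members, such as Slc25a15, Slc25a27, Slc25a44 and Slc25a51 at 1 week. At 8 weeks these included Slc25a32, Slc25a35, Slc25a38, Slc25a44, Slc25a47 and Slc25a51. The direction of Slc25a4, of Ucp2 and Ucp3 and of all 8 pairs was the same under every alternative.

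With 1 library left out, 5 to 11 members moved down from 1 week to 8 weeks, and Slc25a5 was -0.12 to 0.014 at the early, -0.24 to -0.14 at the middle and -0.27 to -0.13 at the late stage, with -0.0932 to 0.0413 from 1 week to 8 weeks. Values near 0 changed sign for Slc25a16 (-0.0422 to 0.0787 at 1 week and -0.0858 to 0.0592 at 8 weeks), Slc25a22 (-0.17 to 0.0426 at 8 weeks) and Slc25a29 (-0.069 to 0.0328 at 8 weeks). The sample titles number the replicates without naming a pairing. Deviations of same-numbered MI and sham libraries correlated at -0.0919 to 0.29, and those of differently numbered ones at -0.305 to 0.206. With 3 libraries a group these values cannot decide whether the numbers pair the libraries. With the number as a replicate block the shifts of Slc25a12/Slc25a13 (0.36, adjusted p = 0.0625) and Slc25a33/Slc25a36 (-0.77, adjusted p = 0.0703) lost their calls in the exact permutation test, and 19 members rose and 11 fell at 8 weeks. Each stage fitted alone ended 6 calls at 8 weeks, among them those of Slc25a25, Slc25a33, Slc25a36 and Slc25a40, and left 13 rises and 11 falls. Without read counts, what depth limits is unknown.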
